A study of Rattus norvegicus with 3 samples.

Results

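miR-221 and miR-222 are a pair of microRNAs (miRNAs, short RNAs that guide Argonaute proteins to partly complementary messenger RNAs and lower their output) made from neighbouring hairpins. They were followed here in 3 small RNA libraries that the labels assign to extracellular vesicles, the membrane-bound packets shed by cells, from primary wild-type neonatal rat astrocytes. One library came from untreated cultures. The second came from cultures given IL-1α, TNF-α and complement C1q from day 6 for 24 h, a mixture used to drive an inflammatory reactive state, and the third from cultures given IL-4 and C1q over the same period, so that C1q was shared by both treatments and absent from the control. Each condition had 1 library, all 3 were placed in 1 batch by the labels, and no source used here says whether animals or cultures were pooled. The extraction text also mentions harvested astrocytes, which leaves the vesicle origin of the RNA uncertain. The libraries are called untreated, inflammatory and IL-4/C1q below.

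The rat-named rows whose name, without its arm and any suffix, is miR-221 or miR-222 were taken. There were 4 of them among 1480 rows in each file and 548 rat-named rows: miR-221-3p, miR-222-3p, miR-221-5p and miR-222-5p. No row of another species prefix carried either name (0 rows). All 4 were counted in every library, rno-miR-221-3p at 11517, 15909 and 14423 CPM and rno-miR-222-3p at 3642, 5891 and 4829 CPM in the untreated, inflammatory and IL-4/C1q libraries (CPM is a count scaled to a library of 1000000 miRNA counts). Also, all 12 of their counts were whole to a tolerance of 1e-06, so none showed the fractions that elsewhere in these files go with counts divided among rows.

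Each hairpin is cut into a 5p and a 3p arm, one of which is usually kept in Argonaute while the other is mostly lost. The 3p arms of miR-221 and miR-222 begin with the same seed, the stretch from base 2 to base 8 that does most of the target pairing, so they are treated as one targeting family. In human and rodent cells they are known for repressing Cdkn1b and Cdkn1c, which hold back the cell cycle, and the receptor Kit. They are abundant in vascular smooth muscle, endothelial cells and gliomas, and their transcription has been tied to NF-κB and the AP-1 factor c-Jun in human tumour cells.

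The mature sequences show what the pair shares and where it parts. They are given 5′ to 3′ from RefSeq (GRCr8), with the seed in capitals.
miR-221-3p: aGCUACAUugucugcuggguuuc
miR-222-3p: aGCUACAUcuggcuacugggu
miR-221-5p: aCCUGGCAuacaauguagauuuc
miR-222-5p: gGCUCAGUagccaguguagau
The 3p arms were identical over their first 8 bases, and without gaps they differed at 10 of the next 13 positions. No other of the 693 mature rat names in the RefSeq table had that seed; it was found in 2 names, these 3p arms. The 5p arms had a seed each, found in 1 name.

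Both hairpins lie on the plus strand of chromosome X in GRCr8, 458 bases apart, at chrX:6022621-6022723 for miR-222 and chrX:6023182-6023290 for miR-221. RefSeq places them inside the spans of the long non-coding RNA genes LOC120099382 and LOC120099384; the deposited files give no positions of their own. The hairpins are shown because arm use is compared below, with both mature arms in capitals.
Mir222: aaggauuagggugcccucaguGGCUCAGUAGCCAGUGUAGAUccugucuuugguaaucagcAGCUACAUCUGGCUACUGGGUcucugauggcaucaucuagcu
Mir221: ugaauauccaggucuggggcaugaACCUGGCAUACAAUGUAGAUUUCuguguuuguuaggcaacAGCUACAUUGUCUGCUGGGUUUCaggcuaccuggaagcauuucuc

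The miR-221 rows carried plain names, while both miR-222 rows carried length suffixes, R+3 on the 3p arm and L-3R+4 on the 5p arm. The files do not define these suffixes. Read in the usual way, as bases gained or lost at the left (5′) and right (3′) ends, they give the following strings in the hairpin, with the added bases of the 3p row and the seed of the 5p row in capitals.
miR-222-3p with 3 bases added: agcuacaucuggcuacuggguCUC
miR-222-5p with 3 bases lost and 4 added: uCAGUAGCcaguguagauccug
On that reading the 3p seed was untouched. The 5p row had another seed than the reference arm, and this seed occurred in 0 mature rat names of the table. Each name had a single row, so the share of different lengths could not be examined.

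The libraries held 6318839, 12327301 and 7779718 counts (rounded) in miRNA-named rows, in the order untreated, inflammatory and IL-4/C1q. Levels are shares of these totals: neither the amount of RNA nor the number of vesicles is known, and fewer cells of a type and less RNA per cell cannot be told apart. With 1 library a condition, ratios compare libraries and carry 95% intervals for counting error only, with no replicate check and no p-value. A ratio was called when it was at least 2-fold, its interval excluded 1 and the higher library had at least 50 counts.

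The 3p arms made up a sizeable part of the libraries, with miR-221-3p among the 20 most abundant names in each. miR-221-3p had 72776 counts in the untreated library, 1.15% of the total (Clopper-Pearson interval 1.14 to 1.16%), and ranked 19 among 938 miRNA names. After the inflammatory mixture it had 196116 counts, 1.59% of the total (1.58 to 1.60%), and after IL-4/C1q 112209 counts, 1.44% (1.43 to 1.45%), with rank 14 in both. Its share was thus lowest in the untreated library and highest after the inflammatory mixture. The ratio to untreated was 1.38 (1.37 to 1.39) after the inflammatory mixture and 1.25 (1.24 to 1.26) after IL-4/C1q, short of 2-fold in both.

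miR-222-3p was the less abundant of the pair and showed the same order of libraries. It had 23011 counts in the untreated library (0.364% of the total, interval 0.359 to 0.369%), 72624 after the inflammatory mixture (0.589%, 0.585 to 0.593%) and 37567 after IL-4/C1q (0.483%, 0.478 to 0.488%). Its rank went from 42 to 29 and 32. The ratio to untreated was 1.62 (1.59 to 1.64) after the inflammatory mixture and 1.33 (1.30 to 1.35) after IL-4/C1q, again short of 2-fold.

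The minor 5p arms, which carry other seeds and are the arms usually lost, were far scarcer. miR-221-5p had 509, 1976 and 1124 counts in the untreated, inflammatory and IL-4/C1q libraries, or 80.6, 160.3 and 144 CPM. Its ratio to untreated was 1.99 (1.80 to 2.20) after the inflammatory mixture and 1.79 (1.61 to 1.996) after IL-4/C1q, the highest of the 4 arms in each comparison. The first value lay just under the 2-fold limit and passed it with edgeR TMM factors (2.09) and DESeq2 size factors (2.17), so its side of the limit is set by the scaling. miR-222-5p had 39, 124 and 62 counts, or 6.17, 10.1 and 7.97 CPM. Its ratio was 1.63 (1.13 to 2.40) and 1.29 (0.851 to 1.98), and at this depth the second was not separable from 1.

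**Figure D1:**
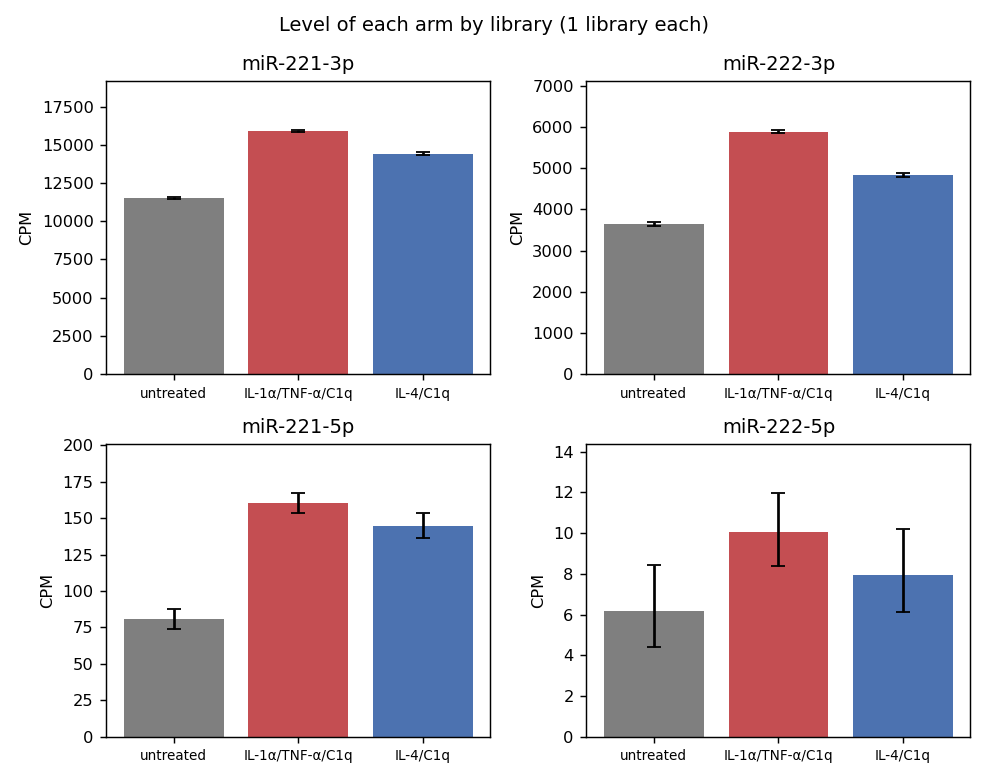
Level of each arm in CPM (vertical axes from 0, on different scales) in the 3 libraries; bars are single libraries and error bars are 95% counting intervals. In each panel the untreated library is lowest and the inflammatory library highest, from 11517 to 15909 CPM for miR-221-3p and from 6.17 to 10.1 CPM for miR-222-5p, where the intervals are widest.

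Because both 3p arms carry the same seed, their summed share describes the seed family as far as the RefSeq names show it. Names without a RefSeq match were not searched for the seed. It was 1.52% of the counts in the untreated library (interval 1.51 to 1.53%), 2.18% after the inflammatory mixture (2.17 to 2.19%) and 1.93% after IL-4/C1q (1.92 to 1.93%). The summed ratio to untreated was 1.44 (1.43 to 1.45) and 1.27 (1.26 to 1.28). In the direct comparison the IL-4/C1q library held 0.883 of the share of the inflammatory library (0.878 to 0.889).

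All 4 arms had a higher share in each treated library than in the untreated one. How many of all tested miRNAs did so was not counted, and arms of neighbouring hairpins are not independent observations. As scaled here, 0 of the 4 passed the 2-fold rule in any of the 3 comparisons. Of 513 miRNAs tested after the inflammatory mixture, 34.5% passed in either direction, 13.5% as higher and 21.1% as lower. Of 485 tested after IL-4/C1q the shares were 36.3%, 12.8% and 23.5%. In that second comparison 62 miRNAs were higher and 114 lower, a split that was 83 and 97 with DESeq2 size factors and 82 and 97 with the authors' normalized signal. Scaled to 6 astrocyte and glial miRNAs without miR-21-5p, an alternative added after seeing the data, the splits were 120 and 96, against 69 and 108, in the first comparison and 100 and 91 in the second; all arms but miR-221-3p then passed after the inflammatory mixture, and miR-221-5p after IL-4/C1q. The median ratio of all tested miRNAs was 0.951 after the inflammatory mixture, where the median of the 4 arms was 1.62. After IL-4/C1q it was 0.888, where that of the arms was 1.31. For the tested rat-named miRNAs alone, the median was 1.03 after the inflammatory mixture and 0.974 after IL-4/C1q. Both comparisons use the same untreated library, so an untreated library that was low for these miRNAs would show in both.

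Seen against the other miRNAs, the ratios of the 3p arms were moderate. After the inflammatory mixture, 28.5% of the tested miRNAs had a higher ratio than miR-221-3p and 22.4% a higher one than miR-222-3p; for miR-221-5p it was 13.6% and for miR-222-5p 21.6%. After IL-4/C1q the shares were 30.1%, 26.4%, 16.3% and 28.0% in the same order. Among the 134 rat-named miRNAs with at least 1000 counts in every library, 30 and 21 stood above miR-221-3p and miR-222-3p after the inflammatory mixture, and 32 and 27 after IL-4/C1q.

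Set against each other, the treated libraries differed by less than 2-fold for each of these miRNAs. miR-221-3p was at 0.907 of its inflammatory-library share in the IL-4/C1q library (0.900 to 0.913) and miR-222-3p at 0.820 (0.809 to 0.830). miR-221-5p was at 0.901 (0.837 to 0.970), and miR-222-5p at 0.792 with an interval from 0.574 to 1.08. Among 467 miRNAs tested, 2.57% passed the 2-fold rule, and the median ratio was 0.956. The 4 values lay below that median. Of the tested miRNAs, 81.8% had a higher ratio than miR-222-3p and 63.6% a higher one than miR-221-3p. For miR-222-5p it was 86.1% and for miR-221-5p 64.9%. Among the 134 rat-named miRNAs with at least 1000 counts in every library, 123 stood above miR-222-3p and 83 above miR-221-3p.

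miR-221-3p and miR-222-3p differed in their proportion between the libraries by more than counting error. There were 0.316 miR-222-3p counts for each miR-221-3p count in the untreated library (0.312 to 0.321), 0.370 after the inflammatory mixture (0.367 to 0.373) and 0.335 after IL-4/C1q (0.331 to 0.339). None of the 3 intervals overlap, but at these counts the intervals are narrow. How many other pairs of abundant miRNAs would separate in the same way was not counted. The proportion needs no library scaling. Relative to untreated it was 1.17-fold higher after the inflammatory mixture (1.15 to 1.19) and 1.06-fold higher after IL-4/C1q (1.04 to 1.08), and between the treated libraries it was 0.904 (0.891 to 0.917). The intervals leave out variation between cultures and library preparations, which 1 library a condition cannot show. Ligation preferences also differ between sequences, so the proportion does not give the molar ratio of the pair.

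The arms of each hairpin were also compared within a library. For miR-221 the 5p arm held 0.695% of both arms' counts in the untreated library (interval 0.636 to 0.757%), 0.998% after the inflammatory mixture (0.954 to 1.04%) and 0.992% after IL-4/C1q (0.935 to 1.05%). The treated libraries overlapped with each other, and both lay above the untreated one. There were 143 3p counts for each 5p count in the untreated library and 99.2 and 99.8 in the treated libraries. The 5p to 3p ratio was 1.44-fold higher after the inflammatory mixture (1.31 to 1.59) and 1.43-fold higher after IL-4/C1q (1.29 to 1.59).

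For miR-222 the 5p arm held 0.169% (0.120 to 0.231%), 0.170% (0.142 to 0.203%) and 0.165% (0.126 to 0.211%) of both arms' counts. These values overlapped throughout. The 5p to 3p ratio stood at 1.01 of untreated after the inflammatory mixture (0.703 to 1.44) and 0.974 after IL-4/C1q (0.652 to 1.45). The change of miR-221 divided by that of miR-222 was 1.43 (0.985 to 2.08) and 1.47 (0.972 to 2.23), so with 39 untreated miR-222-5p counts the hairpins could not be told apart in this respect.

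**Figure D2:**
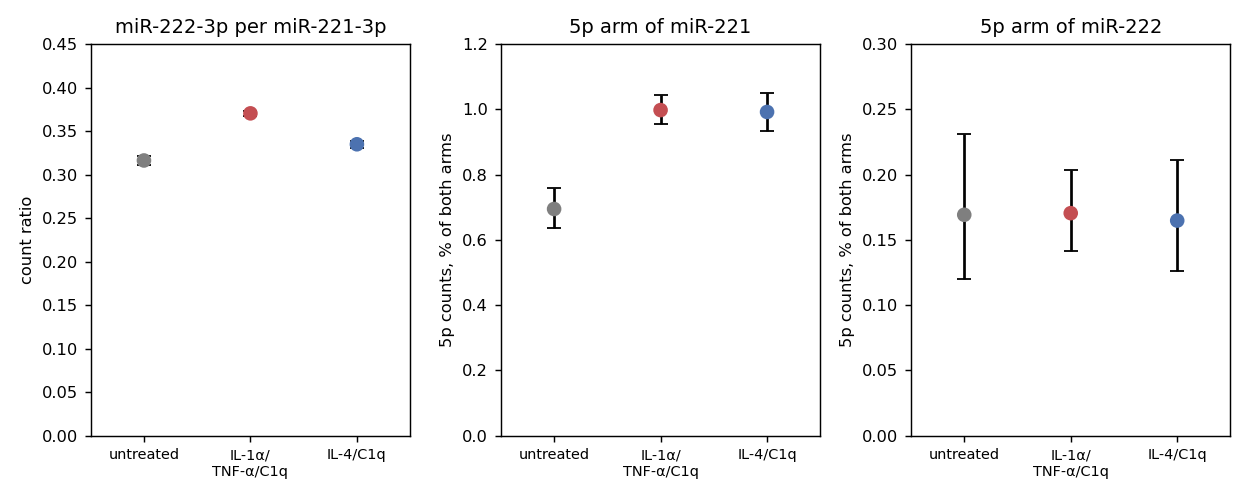
Left, miR-222-3p counts per miR-221-3p count; middle and right, the 5p counts of miR-221 and miR-222 as a percentage of both arms' counts, with vertical axes from 0. Points are single libraries with 95% counting intervals. The left values run from 0.316 to 0.370, the 5p share of miR-221 is 0.695% in the untreated and 0.998% and 0.992% in the treated libraries, and the 3 intervals of miR-222 overlap.

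Taken without intervals, a shift of this size between arms was common in these files. With a minimum of 20 counts for each arm in every library, chosen after the values were seen, 87 rat hairpins could be compared. Neither miR-221 nor miR-222 passed 1.5-fold, while 29.9% of the hairpins did so in either direction after the inflammatory mixture and 26.4% after IL-4/C1q. The minor arm of 15 and 11 hairpins gained more than that of miR-221. In either direction 28 of the 87, miR-221 included, moved at least as much in each comparison. No interval was required in these counts, so counting error in scarce arms can add to them. The median change over the hairpins was 0.975-fold and 0.937-fold.

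**Figure D3:**
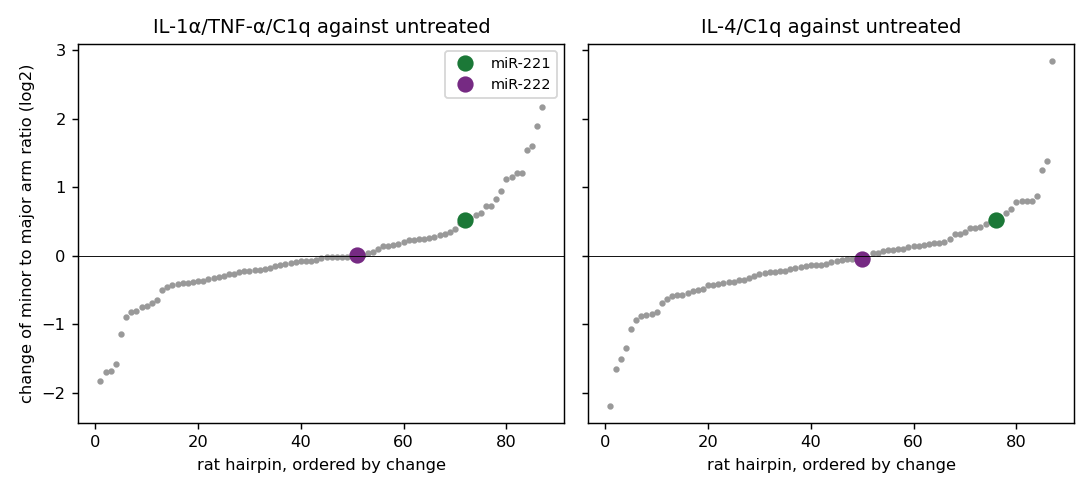
Change of the minor to major arm count ratio from the untreated library (log2, vertical axis) for 87 rat hairpins ordered by that change (grey points), with miR-221 and miR-222 coloured. miR-221 lies in the upper part in both panels at 0.53 and 0.52, and miR-222 lies near 0.

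The most similar profiles were sought among the 133 other rat-named miRNAs with at least 1000 counts in every library, by the distance between their log2 ratios to untreated over the 2 treated libraries. With only 3 libraries and a shared reference this is a description. The miRNAs nearest to miR-221-3p were miR-425-5p, miR-16-5p, miR-325-5p, miR-296-3p and miR-106b-5p, at distances of 0.04 to 0.10. Those nearest to miR-222-3p were miR-155-5p, miR-191a-5p, miR-872-5p, miR-421-3p and miR-25-3p, at 0.03 to 0.13. The partner itself ranked 15 for miR-221-3p and 10 for miR-222-3p, at 0.24.

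The list of miRNAs induced through NF-κB or AP-1, the factors tied to miR-221 and miR-222 in human cells, had 9 members, all in the files. After the inflammatory mixture 0 passed as higher and 1 as lower, with a median log2 ratio of 0.03 (CPM + 1), against −0.07 for all tested miRNAs; after IL-4/C1q 0 passed as higher and 2 as lower, with a median of 0.11 against −0.16. miR-155-5p, an inflammation-induced miRNA, was the nearest profile to miR-222-3p, at 298, 477 and 389 CPM, with ratios of 1.598 and 1.30. miR-132-3p stood at 1.18 and 1.12, miR-21-5p at 1.02 and 1.08, and miR-9a-5p at 0.720 and 0.759. Those past the rule, named after their values were seen, were miR-147 and miR-146a-5p. miR-147 was lower in both, with ratios of 0.408 and 0.189. miR-146a-5p passed as lower after IL-4/C1q at 0.425 and stood at 0.593 after the inflammatory mixture, short of the rule.

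miR-221 and miR-222 are X-linked, and other chromosome X miRNAs were looked at for that reason. Of 510 rat-named miRNAs 441 matched a RefSeq name, and 58 of these, the 4 arms included, had chromosome X as their sole location. After the inflammatory mixture 8 of 45 other X-linked miRNAs passed as higher and 2 as lower, with a median ratio of 1.11; that is 17.8% and 4.44%, against 13.5% and 21.1% of all tested miRNAs, whose median ratio was 0.951. After IL-4/C1q the 41 others tested held 4 higher and 2 lower ones, and their median ratio was 1.21. That is 9.76% and 4.88%, against 12.8% and 23.5% of all tested miRNAs and a median of 0.888. These backgrounds take in names of every species prefix, while the X-linked set was rat-named. The tested rat-named miRNAs had a median ratio of 1.03 after the inflammatory mixture and 0.974 after IL-4/C1q. The nearest other chromosome X hairpin of the table was 11895895 bases away, so none of these shares the cluster. Arms of the same hairpin and neighbouring hairpins entered as separate names, so the X-linked miRNAs are not independent observations.

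Markers of cell types in which the pair is known to be abundant differed in direction. The mesenchymal and smooth muscle list summed to 20338 CPM in the untreated library, 50950.4 after the inflammatory mixture and 72976 after IL-4/C1q, with 5 and 6 of its 8 members past the rule as higher and none at 0. It was highest after IL-4/C1q, while miR-221-3p and miR-222-3p were highest after the inflammatory mixture. The endothelial miR-126a arms summed to 68.5, 34.9 and 48.3 CPM, with neither at 0 and 1 of the 2 past the rule as lower after the inflammatory mixture. Taking the mesenchymal list out of the totals, an alternative chosen after the data were seen, gave miR-221-3p 1.43 and 1.32 and miR-222-3p 1.67 and 1.40. This alters the totals only. Whether such cells had a part in the levels of miR-221 and miR-222 was not tested.

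The untreated library also stood apart in epithelial and in erythroid and serum miRNAs. The epithelial list summed to 3471 CPM there and to 115 and 102 CPM in the inflammatory and IL-4/C1q libraries, with 6 of 7 members past the rule as lower in both. miR-141-3p was at 0 in both treated libraries. The rat-named miR-429 row of the list held 0, 5 and 0 counts in the untreated, inflammatory and IL-4/C1q libraries, but a marmoset-named row held 308, 0 and 0 and a human-named row 30, 0 and 0. The erythroid and serum list summed to 8847 CPM against 1054 and 1386, with 5 of 5 lower in both; miR-144-3p was at 0 after the inflammatory mixture. Together with the bovine-named rows these lists held 1.67%, 0.176% and 0.224% of the counts. Leaving them out of the totals, an alternative chosen after the data were seen, gave miR-221-3p 1.36 and 1.23 and miR-222-3p 1.59 and 1.31. That changes the totals only. Whether the sources of these rows also contributed to the counts of miR-221 and miR-222 was not tested.

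Levels of 7 astrocyte and glial miRNAs were set beside the labelled cell type. Without a library of another cell type they cannot settle it. Of the 7, miR-21-5p and miR-9a-5p also stand on the NF-κB or AP-1 list. The 7 summed to 520315, 494521 and 512902 CPM with none at 0. Most of this was miR-21-5p; the other 6 summed to 162394, 129308 and 125980 CPM, and all 6 had a lower share in each treated library than in the untreated one. miR-9a-5p, a neural lineage miRNA, stood at 44644, 32150.3 and 33903 CPM. None passed the rule after the inflammatory mixture, and 1 of the 7 was lower after IL-4/C1q. Relative to the summed count of this list, miR-221-3p was 1.45-fold and 1.27-fold and miR-222-3p 1.70-fold and 1.35-fold of untreated. Relative to the 6 without miR-21-5p, chosen after the data were seen, miR-221-3p was at 1.73 and 1.61 and miR-222-3p at 2.03 and 1.71. The leukocyte list, with mouse- and guinea pig-named rows where no rat-named row existed, summed to 334, 227 and 264 CPM, with miR-342-3p the largest part at 153, 214 and 195 CPM. The myeloid miR-223-3p stood at 58.2, 2.27 and 30.6 CPM and miR-142-5p at 115, 6.49 and 31.6 CPM. Of the 5 members, these 2 passed as lower after the inflammatory mixture, miR-142-5p alone after IL-4/C1q, and both were higher in the IL-4/C1q than in the inflammatory library; for miR-142-3p there were 5, 0 and 0 counts. The neuron list summed to 8298, 4823 and 4574 CPM and the oligodendrocyte list to 144, 84.8 and 80.5 CPM. Whether other cell types had a part in the levels of miR-221 and miR-222 was not tested.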

How the data were processed

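Small RNA libraries of rat astrocyte vesicles, 1 per condition, were analysed as deposited. No source used here names the aligner, counter, miRNA database or genome build. Per the file headers, each file holds an estimated count (raw), deposited by the authors with some counts divided among rows, and a normalized signal. The deposited signal was the raw column times a constant per library (1.25, 0.684 and 1.14), and served only as an alternative scaling. Predicted candidates (0.066%, 0.036% and 0.034% of counts) were left out. Rows of a mature name were summed, giving 938 names; rows with a substitution tag stayed separate if an untagged row of that name existed. Member counts were whole; others were rounded for intervals and factors. Share ratios have exact conditional binomial 95% intervals, and ratios of count ratios log-normal ones. Reads copied by PCR are not independent, so the intervals cover counting error alone. The ratios and the rule were tried on simulated data that held counting error alone and planted changes above the 2-fold limit. That trial does not cover variation between cultures or smaller changes.

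The members, lists and rules were chosen with earlier results of these data known. Named miRNAs are the members, the 5 nearest profiles of each 3p arm and up to 4 per list by mean CPM; exceptions are marked. One planned list is not reported here. Alternatives were TMM factors (edgeR 4.0.16), DESeq2 1.42.0 size factors, other totals, the highest row of a name, and other fold and count minimums. Sequences came from RefSeq (GRCr8), where all 4 names and both hairpins matched. Calculations used Python 3.11.15, SciPy 1.17.1 and R 4.3.3.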

Additional observations from a re-analysis of the deposited data

How the results depend on the processing

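The 4 arms stayed higher than untreated in both treated libraries under each of the 11 alternatives that could move a ratio. They also stayed lower after IL-4/C1q than after the inflammatory mixture. The fold and count minimums cannot move a ratio. Each alternative shifts the log2 ratios of all 4 arms by the same amount, so the arms are not separate checks. Against untreated the largest shift down was −0.02, beside a smallest arm value of 0.32. Between the treated libraries the largest shift up was 0.08, beside −0.14 for miR-221-3p. Shifts of this size could not change a direction. miR-221-3p ranged from 1.36 to 1.73 after the inflammatory mixture and from 1.23 to 1.61 after IL-4/C1q, and miR-222-3p from 1.59 to 2.03 and from 1.31 to 1.71. Scaling to the astrocyte and glia list without miR-21-5p, added after seeing the data, shifted every log2 ratio by 0.33 and 0.37 and took miR-222-3p (2.03), miR-221-5p (2.499) and miR-222-5p (2.05) past 2-fold after the inflammatory mixture, and miR-221-5p (2.31) after IL-4/C1q. Under the others, miR-221-5p alone crossed the limit. After the inflammatory mixture (1.99) it stood at 2.09 with TMM factors, 2.17 with DESeq2 size factors, 2.01 without the most abundant miRNA, 2.12 with the authors' normalized signal, 2.05 without the mesenchymal list and 2.09 relative to the astrocyte and glia list, the last 2 chosen after seeing the data. After IL-4/C1q (1.79) it reached 2.03 with DESeq2 size factors and 2.02 with the authors' signal. DESeq2 size factors shifted every log2 ratio by 0.13 and 0.18 in these comparisons, TMM factors by 0.07 and 0.12, and the authors' signal by 0.09 and 0.17. A 1.5-fold limit was passed after the inflammatory mixture by miR-222-3p (1.62), miR-221-5p (1.99) and miR-222-5p (1.63), and after IL-4/C1q by miR-221-5p (1.79). Of all tested miRNAs, 25.9% and 21.03% passed that limit as higher.

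Count ratios within the cluster did not change with the highest row of a name, since each member had 1 row; rows of other species and shares of length variants gave no value. Numbers of miRNAs past the rule, 177, 176 and 12 in the 3 comparisons, became 338, 323 and 57 at a minimum of 10 counts, 103, 100 and 3 at 200, and 280, 257 and 41 at 1.5-fold; as a share of these, the higher ones went from 58.3% to 42.1% and 100% at the count minimums in the third comparison. No paired analysis was possible because each condition had 1 library, and no replicate could be left out. Depth limits miR-222-5p, with 39 to 124 counts.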
